A study of Rattus norvegicus with 16 samples.

Results

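The rat sciatic nerve was compared between 7 and 3 days post-crush, as the RNA of the whole nerve segment distal to the crush. The comparison rests on 4 of the 16 libraries of the series, 2 whole nerve libraries at day 7 and 2 at day 3, chosen by their labels alone. In the series, whole nerve and Schwann cells purified by immunopanning (removal of CD45+ and Thy1+ cells, then capture of O4+ cells) were each sequenced uncrushed and at days 3, 5 and 7, with 2 libraries per group. All animals were Rattus norvegicus, labelled as postnatal day 18 in the uncrushed and the crushed groups alike, which for the crushed animals was the age at surgery. At collection the day 7 animals were therefore older than the day 3 animals, and both were older than the labelled age of the uncrushed animals. Growth of the young animals and time after crush cannot be told apart in any comparison between these groups. Crush was done on the left side, halfway along the thigh, and the operated animals were given carprofen, an anti-inflammatory painkiller. The uncrushed samples are the matching nerve segment, taken without a sham operation, and no genotype was varied. Each RNA sample came from at least 10 nerves. What separates the 2 samples of a group is not stated, so the p-values measure only the spread between these samples, which may be technical.

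After a crush, the axons distal to the injury break down and the Schwann cells that wrapped them switch off their myelin genes, divide and turn on a repair program. They break down their own myelin and draw in blood macrophages, which clear what is left. As new axons grow back along the Schwann cell columns, cells leave the cycle and myelin genes are turned on again. 

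Total expected counts ran from 13365985 to 20203912 fragments over the 4 libraries, and day 3 was sequenced more deeply than day 7 (18526827 and 20203912 against 13449491 and 13365985). The 2 libraries of every group differed by far more than counting noise, so no library was counted as a copy of another. Mitochondrially encoded transcripts took 6.44% and 6.63% of the day 3 libraries and 7.81% and 8.83% of the day 7 libraries, against 15.6% and 14.2% of the uncrushed libraries. Skeletal muscle transcripts, which mark attached muscle, were uneven. Myh4, a fast muscle myosin, stood at 0.89 and 0.64 FPKM at day 3 and at 8.32 and 0.18 FPKM at day 7, with 2.44 and 56.0 FPKM in uncrushed nerve, so day 7 replicate 1 and uncrushed replicate 2 carried most of it. FPKM, fragments per kilobase of transcript scaled to the mapped fragments of the library, is the level scale used throughout, and fold changes come from the counts. The scaling factors of the counts were 1.06 to 1.09 at days 3 and 7 and 0.81 in the uncrushed libraries, so FPKM levels in uncrushed nerve read lower against the crushed nerve than the fold changes do.

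Between day 7 and day 3, 3358 of 15831 genes tested changed, 21.2% of them, at a Benjamini-Hochberg adjusted p below 0.05 in edgeR's quasi-likelihood test. Of these, 1560 were higher at day 7 (9.85% of the tested genes) and 1798 were lower (11.4%). The excess of lower genes turned under other settings, to 1774 higher and 1591 lower with upper quartile factors and to 1601 higher and 1428 lower in the fit on all 16 libraries. The changes were mostly modest. The median size of a call was 0.78 on the log2 scale among the higher genes and 0.67 among the lower genes, and 581 higher and 492 lower genes had changed at least 2-fold. The calls at the far end were mainly increases, with 171 genes at least 4-fold higher and 69 at least 4-fold lower. The count depended on having both libraries of a group, and was 1706 without day 3 replicate 1, 1634 without day 3 replicate 2, 2239 without day 7 replicate 1 and 2514 without day 7 replicate 2. Below, leave-one-out counts are given for these 4 omissions, in this order. For comparison, 7212 genes (45.6%) differed between day 3 and uncrushed nerve and 4952 (31.3%) between day 7 and uncrushed nerve. From day 3 to day 5, 1828 genes changed (11.5%), 899 higher (5.68%) and 929 lower (5.87%), and from day 5 to day 7, 1172 changed (7.4%), 578 higher (3.65%) and 594 lower (3.75%). These contrasts share libraries with day 7 against day 3, so their values are given only side by side.

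**Figure D1:**
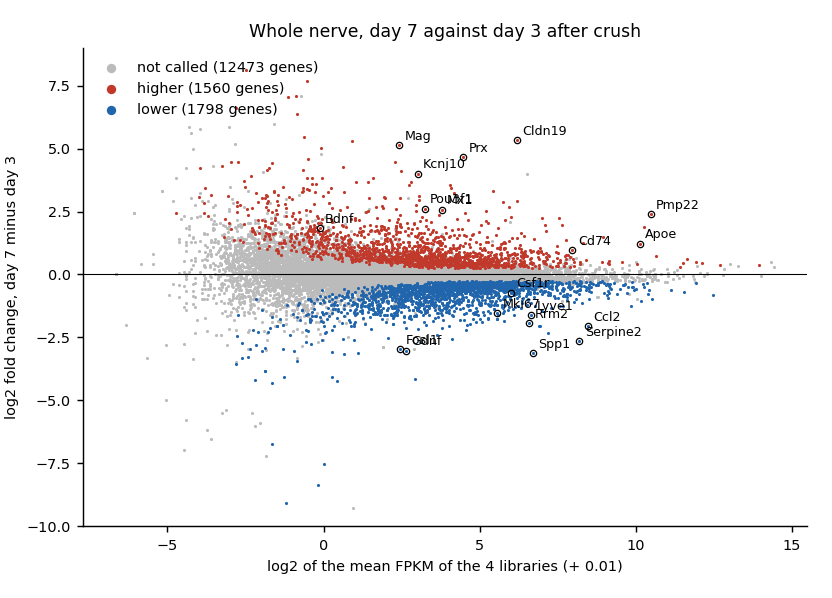
Log2 fold change from day 3 to day 7 in whole nerve (y axis) against the log2 of the mean FPKM of the 4 libraries (x axis), 1 point per tested gene, with 1560 higher genes in red, 1798 lower genes in blue and the others in grey. Cldn19, Mag and Prx stand far above the other labelled genes, and Spp1, Gdnf and Fosl1 lie at the bottom of the labelled ones.

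The increases with the lowest adjusted p included several genes of the myelin sheath and the node, among them Cldn19, Mag, Prx, Gldn and Pmp2. Cldn19, a claudin of the autotypic tight junctions of myelin, was at 4.96 and 4.05 FPKM at day 3 and at 136 and 145 FPKM at day 7, with 281 and 329 FPKM in uncrushed nerve. The 2 groups did not overlap, as was the case for every gene ranked here and for 61.6% of all tested genes. The difference of 5.34 ± 0.15 (log2 ± SE, adjusted p = 6.93e-08) is a 40.4-fold increase. Kcnj10, the inward rectifier potassium channel Kir4.1, went from 0.94 and 0.90 FPKM to 14.5 and 16.01 FPKM (log2 4.0 ± 0.16), above the 3.03 and 3.11 FPKM of uncrushed nerve. Tmprss5, a membrane serine protease, went from 7.47 and 8.24 FPKM to 78.6 and 76.0 FPKM (log2 3.30 ± 0.10) beside 55.8 and 61.1 FPKM in uncrushed nerve, from which day 7 did not differ in the fit (adjusted p = 0.991). Sh3gl3, an endophilin of membrane curvature, and Cuedc2, a ubiquitin-binding protein, rose by 2.86 and 2.22 on the log2 scale to levels above those of uncrushed nerve. Col2a1, the fibrillar collagen of cartilage, Emid1, a secreted protein with an EMI domain, and Fam212b rose by 3.55, 3.55 and 2.38 and stayed below uncrushed nerve.

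The decreases with the lowest adjusted p held cell cycle genes beside secreted and stress genes. Spp1, which encodes the secreted phosphoprotein osteopontin, was at 166 and 206 FPKM at day 3 and at 22.5 and 20.4 FPKM at day 7, against 54.1 and 59.6 FPKM in uncrushed nerve. Both day 7 libraries therefore lay below both day 3 and both uncrushed libraries. Its fall of 3.12 ± 0.12 on the log2 scale (adjusted p = 3.77e-07) is 8.69-fold. Serpine2, the protease inhibitor nexin-1, fell from 476 and 532 FPKM to 92.5 and 68.5 FPKM, a log2 difference of -2.64 ± 0.15 (adjusted p = 4.05e-06), close to the 65.0 and 68.9 FPKM of uncrushed nerve. Gadd45a, a growth arrest and DNA damage gene, fell by 2.04, Akap6, an anchoring protein for protein kinase A, by 1.90, and Tuba1c, an alpha tubulin, by 1.46. Lyve1, a hyaluronan receptor of lymphatic endothelium and of some resident macrophages, went from 156 and 147 FPKM to 49.4 and 49.9 FPKM, beside 48.2 and 42.3 FPKM in uncrushed nerve, where the scaled counts put day 7 lower than uncrushed (log2 -0.28 ± 0.09, adjusted p = 0.0434). Pcsk1, the prohormone convertase that trims propeptides, went from 34.5 and 36.2 FPKM to 11.6 and 12.6 FPKM and was at 0.21 and 0.26 FPKM in uncrushed nerve. In purified Schwann cells, the difference of Pcsk1 was -0.21 ± 0.14 (adjusted p = 0.339), and the difference between the 2 preparations passed its own test (-1.32 ± 0.18, adjusted p = 0.000764).

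**Figure D2:**
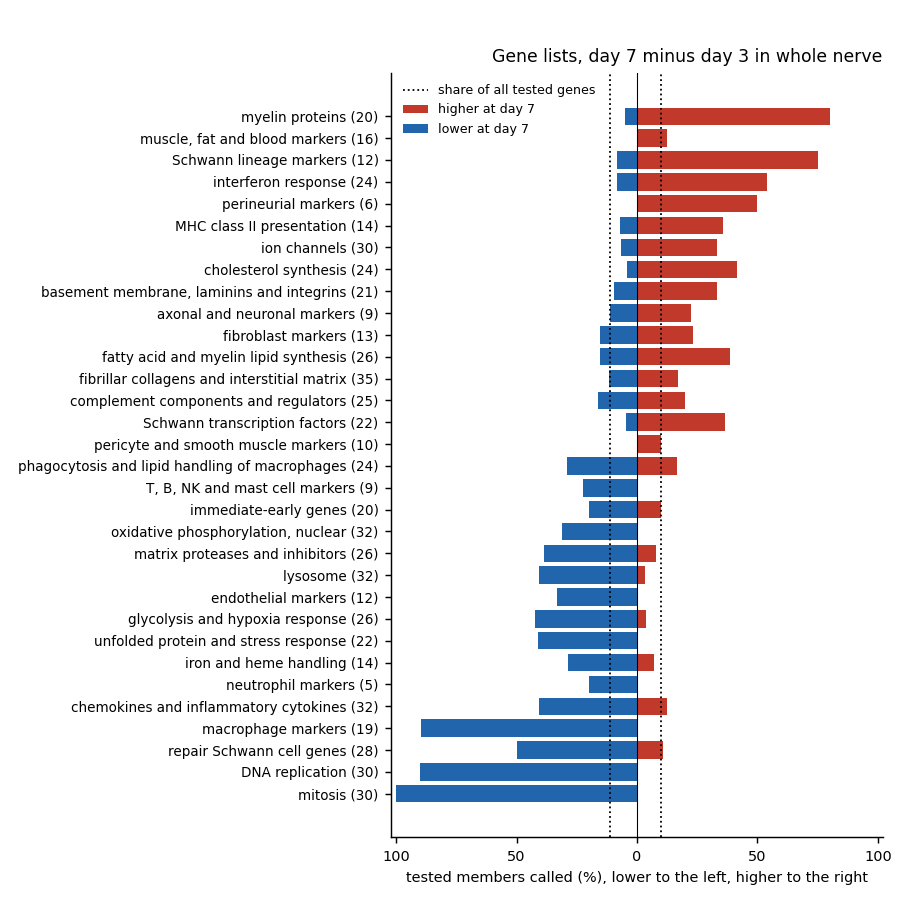
Share of the tested members called lower (blue, left) and higher (red, right) at day 7 in 32 gene lists (number tested in brackets), ordered by median log2 fold change, with dotted lines at the shares among all tested genes, 11.4% and 9.85%. Mitosis, DNA replication and macrophage lists are almost wholly blue, and myelin proteins and Schwann lineage markers mostly red.

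Cell division genes fell as a block. All 30 mitosis genes were lower at day 7, with a median difference of -1.48 on the log2 scale and a range from -1.91 to -1.01, while the median over all tested genes was 0.00. Of 30 DNA replication genes, 27 were lower, none was higher, and the median was -1.19. The 3 that did not pass were Pold1 (-0.59), Rfc3 (-0.17) and Mcm7 (-0.01). Mki67, the antigen of cycling cells, was at 68.7 and 71.1 FPKM at day 3, 40.8 and 49.1 FPKM at day 5 and 22.4 and 25.6 FPKM at day 7, with 6.24 and 5.71 FPKM in uncrushed nerve. Its libraries did not overlap between any 2 of these times. The difference from day 3 to day 7 was -1.54 ± 0.11 (adjusted p = 1.06e-05). Rrm2, the small subunit of ribonucleotide reductase, which makes the building blocks of DNA, fell from 152 and 153 FPKM to 41.0 and 38.3 FPKM (log2 -1.94 ± 0.10, adjusted p = 2.33e-06), a 3.85-fold decrease. Plk1, the polo-like kinase of mitotic entry, fell from 15.5 and 13.7 FPKM to 3.46 and 4.32 FPKM (log2 -1.91 ± 0.18, adjusted p = 5.74e-05).

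The anillin gene Anln of the cleavage furrow, the hyaluronan-mediated motility receptor Hmmr and the mitotic kinase Mastl fell by 1.88, 1.78 and 2.03, and the genes of the mitosis list with the smallest falls were Nusap1 (-1.12 ± 0.11) and Cdc20 (-1.01 ± 0.16). Both groups of genes were still far from uncrushed nerve at day 7. The 30 mitosis genes were all higher than in uncrushed nerve at both times, with medians of 3.31 at day 3 and 1.87 at day 7. Among replication genes, 30 were higher at day 3 (median 1.98) and 24 at day 7 (median 0.91), where 23.1% and 15.4% of all tested genes were higher. All 30 mitosis genes were lower without any 1 of the day 3 and day 7 libraries, and the leave-one-out counts of lower replication genes were 24, 24, 26 and 25.

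The promoters of these genes were searched for short motifs known from cell cycle control. RefSeq promoters (build GRCr8, from 250 bases before to 50 after the start site, 300 bases) were on hand for 25 of the 30 mitosis genes and 25 of the 30 replication genes. On either strand, the CHR element TTTGAA was found in 18 of the 25 mitosis promoters (72.0%) against 18.1% of 27457 promoters, and the CCAAT box CCAAT in 18 (72.0%) against 37.7%. CCAAT and TTTGAA occurred together in 14 of the mitosis promoters (56.0%) against 7.25%. The CCAAT box was as common in other lists, with 64.0% of the replication and 82.4% of the cholesterol synthesis promoters. The E2F letters TTTGGCGC or TTTCCCGC were in 10 of the 25 replication promoters (40.0%) against 1.53%. They were in 0 of the 25 mitosis promoters, and TTTGAA was in 1 of the 25 replication promoters (4%). In all, 30 pairs of a list and a motif were searched. A sterol regulatory element (TCAC, any base, CCAC) was among the motifs. It was in 0 of 17 cholesterol synthesis promoters, against 1.13% of all promoters. These lists hold textbook cell cycle genes, and the shares describe the genes on the lists. The promoters of Plk1 and Cdk1, the kinase of mitosis, are printed because they carry both CCAAT and TTTGAA, and those of Mcm6 and Mcm7, 2 subunits of the replicative helicase, because each carries an E2F match, TTTGGCGC in Mcm6 and TTTCCCGC on the opposite strand in Mcm7. Each run is written 5′ to 3′ and ends 20 bases after the start site, with CCAAT and TTTGAA (Plk1, Cdk1) or the E2F letters (Mcm6, Mcm7) in capitals, also where they lie on the other strand. Plk1 covers chr1:186147408-186147677 on the plus strand, Cdk1 chr20:19265043-19265312 on the plus strand, Mcm6 chr13:42404333-42404602 on the minus strand and Mcm7 chr12:22163159-22163428 on the minus strand.
Plk1: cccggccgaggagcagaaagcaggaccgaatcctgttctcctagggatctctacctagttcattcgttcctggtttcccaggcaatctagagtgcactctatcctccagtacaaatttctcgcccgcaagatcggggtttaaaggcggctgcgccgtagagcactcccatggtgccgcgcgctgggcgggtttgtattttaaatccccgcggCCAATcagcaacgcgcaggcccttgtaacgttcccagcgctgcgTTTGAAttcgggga
Cdk1: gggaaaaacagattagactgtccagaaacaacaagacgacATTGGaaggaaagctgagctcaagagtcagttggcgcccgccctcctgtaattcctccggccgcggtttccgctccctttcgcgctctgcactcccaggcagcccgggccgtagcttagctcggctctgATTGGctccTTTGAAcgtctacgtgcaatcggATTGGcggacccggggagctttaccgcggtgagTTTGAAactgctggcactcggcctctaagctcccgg
Mcm6: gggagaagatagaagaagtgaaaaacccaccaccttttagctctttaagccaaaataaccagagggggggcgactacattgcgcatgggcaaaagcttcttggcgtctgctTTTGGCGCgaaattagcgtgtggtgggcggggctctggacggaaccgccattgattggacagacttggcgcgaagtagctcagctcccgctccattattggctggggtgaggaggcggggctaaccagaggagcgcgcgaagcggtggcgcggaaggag
Mcm7: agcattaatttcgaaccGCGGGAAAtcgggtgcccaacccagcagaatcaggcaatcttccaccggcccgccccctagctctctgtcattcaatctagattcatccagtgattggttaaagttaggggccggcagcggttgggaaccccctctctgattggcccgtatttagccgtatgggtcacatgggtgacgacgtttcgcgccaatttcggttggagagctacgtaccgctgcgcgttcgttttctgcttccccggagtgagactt

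Mcm6, printed after its values were seen, fell from 15.5 and 17.6 FPKM to 8.59 and 9.0 FPKM (log2 -0.91 ± 0.12, adjusted p = 0.000617). Mcm7 was at 16.8 and 19.3 FPKM at day 3 and at 18.4 and 17.3 FPKM at day 7, and its groups overlapped (log2 -0.01 ± 0.13, adjusted p = 0.973). Cdk1 fell from 72.3 and 75.9 FPKM to 30.3 and 29.7 FPKM (log2 -1.31 ± 0.10, adjusted p = 2.25e-05).

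The decline of division genes was larger in whole nerve than in purified Schwann cells. In the Schwann cell libraries, 16 of the 30 mitosis genes and 14 of the 30 replication genes were lower at day 7 (10.7% of all genes tested there were), with medians of -0.50 and -0.47. The difference between the 2 preparations passed its test for 28 of the 30 mitosis genes, all in the direction of a larger fall in whole nerve, and for 7 of the replication genes, where 2.43% of all tested genes did. The mitosis genes that did not pass were Nuf2 and Birc5. Without 1 of the 8 day 3 and day 7 libraries, 18 to 23 mitosis and 3 to 6 replication genes passed (19 and 4 without Schwann cell day 3 replicate 2). With at least 10 counts in every library, 28 of 28 mitosis and 17 of 26 replication genes passed. Top2a, the topoisomerase of dividing cells, was at 64.0 and 60.8 FPKM in day 3 Schwann cells and at 59.2 and 58.9 FPKM in day 7 Schwann cells, while whole nerve went from 82.1 and 91.6 FPKM to 34.3 and 37.4 FPKM. The Schwann cell values of Top2a barely separated (log2 -0.17 ± 0.12, adjusted p = 0.350), and those of whole nerve fell (log2 -1.27 ± 0.11, adjusted p = 2.98e-05), with a difference of -1.09 ± 0.17 (adjusted p = 0.00178). The gap was -1.40 ± 0.21 for Plk1 (adjusted p = 0.00158) and -1.21 ± 0.15 for Nusap1 (adjusted p = 0.000633). Whole nerve holds Schwann cells and other cells, and in bulk RNA fewer cells of a type and less RNA per cell cannot be told apart, here or in any result that follows.

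**Figure D3:**
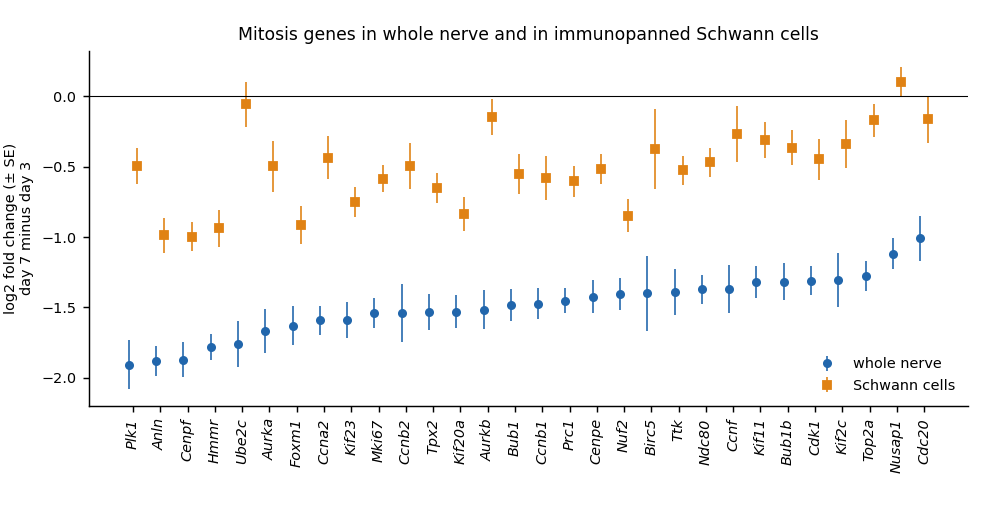
Log2 fold change from day 3 to day 7 (y axis, ± SE) of the 30 mitosis genes (x axis) in whole nerve (blue circles) and in immunopanned Schwann cells (orange squares). The whole nerve values lie between -1.91 and -1.01, and those of Schwann cells between -1.0 and 0.10.

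Macrophage markers fell together while staying above uncrushed nerve. Of 19 markers tested, 17 were lower at day 7 and none was higher, with a median of -0.73. The sum of their FPKM was 3234 and 3229 at day 3, was down to 1793 and 1697 by day 5 and stood at 1750 and 1839 on day 7, against 543 and 514 in uncrushed nerve, so most of the fall lay before day 5. Csf1r, the receptor for the macrophage growth factor, was at 81.4 and 76.4 FPKM at day 3 and at 42.8 and 53.01 FPKM at day 7, without overlap (log2 -0.72 ± 0.10, adjusted p = 0.000902). Cd14, the endotoxin co-receptor, fell by 1.20 ± 0.23, Cx3cr1, the fractalkine receptor, by 1.17 ± 0.24, Itgam, the CD11b integrin chain, by 1.03 ± 0.15, and Ptprc, the leukocyte antigen CD45, by 0.64 ± 0.09. Against uncrushed nerve, 19 markers were higher at day 3 (median 1.83) and 16 at day 7 (median 1.01). The 2 markers that did not fall were Trem2, a lipid-sensing receptor, at 19.6 and 20.3 FPKM and then 21.8 and 25.6 FPKM, and Siglec1, a sialic acid receptor, at 2.90 and 2.79 FPKM and then 3.38 and 3.76 FPKM. Neither passed (adjusted p = 0.318 and 0.194). In a fit on all 16 libraries, which takes its spread from both preparations, 8 markers were lower, and Ptprc, Cd68 and Csf1r did not pass (adjusted p = 0.225, 0.0613 and 0.0889).

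The purified Schwann cells held little of this signal. Ptprc was at 0.15 to 1.29 FPKM and Cd68, a lysosomal macrophage glycoprotein, at 0.50 to 1.66 FPKM in their day 3 and day 7 libraries, against 12.4 to 20.7 and 42.6 to 66.2 FPKM in whole nerve. Schwann cell day 3 replicate 2 stood above the other 3 libraries, with Ptprc at 1.29 FPKM against 0.15 to 0.18 FPKM and Aif1, a macrophage marker, at 6.83 FPKM against 1.09 to 1.93 FPKM. Of 12 neutrophil markers, 5 were measured well enough to test, and 1, Csf3r, the granulocyte colony-stimulating factor receptor, was lower (log2 -1.66 ± 0.31, adjusted p = 0.00416), at 1.74 and 1.47 FPKM and then 0.56 and 0.67 FPKM. In the fit on all 16 libraries Csf3r did not pass (adjusted p = 0.0831). S100a8, a defining neutrophil calprotectin chain, was at 0 to 3.38 FPKM in the 4 libraries and was not tested. Among 9 lymphocyte and mast cell markers tested, Kit and Cpa3 were lower (-0.72 and -0.52) and none was higher, with leave-one-out counts of 1, 2, 1 and 2. Cpa3, a mast cell protease, was the most abundant of them, at 257 and 225 FPKM and then 159 and 177 FPKM. Among all tested genes, 11.4% were lower and 9.85% higher at day 7. Cd3e, a chain of the T cell receptor complex, was at 0.27 and 0.18 FPKM and then 0.51 and 0.69 FPKM (adjusted p = 0.15), and the B cell gene Cd79a at 0 to 0.25 FPKM.

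Chemokines and inflammatory cytokines fell more often than they rose, beside 11.4% of all tested genes lower and 9.85% higher. Of 32 tested, 13 were lower and 4 higher, with a median of -0.56. The leave-one-out counts were 8, 8, 9 and 9 lower and 2, 2, 3 and 1 higher, and the fit on all 16 libraries called 6 lower and 2 higher. Ccl2, the main chemokine for blood monocytes, was at 489 and 640.4 FPKM at day 3, 205 and 210 FPKM at day 5 and 155 and 118 FPKM at day 7, and at 12.7 and 16.2 FPKM in uncrushed nerve. Its day 3 and day 7 libraries lay far apart, and the difference of -2.06 ± 0.16 (adjusted p = 2.15e-05) left it above uncrushed nerve by 2.85 on the log2 scale. Purified Schwann cells also expressed Ccl2, at 202 and 291 FPKM on day 3 and 108 and 152 FPKM on day 7 (log2 -1.03 ± 0.24, adjusted p = 0.0153). The difference between the preparations did not pass (adjusted p = 0.0824). Tgfb1, the anti-inflammatory growth factor, fell from 14.6 and 13.7 FPKM to 7.66 and 9.06 FPKM (log2 -0.76 ± 0.16, adjusted p = 0.00677, and 0.0569 without day 3 replicate 1 and 0.0537 without day 7 replicate 1).

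The 4 cytokines that rose were Il34, Ccl22, Cxcl9 and Cxcl16. Ccl22 did not pass without any 1 of the day 3 and day 7 libraries (adjusted p of 0.111 to 0.219) or with DESeq2 (0.171), Cxcl16 without either day 3 library or day 7 replicate 2 (0.0873 to 0.111), and Cxcl9 without day 3 replicate 2 or day 7 replicate 2 (0.154 and 0.0868). Il34, another ligand of the Csf1 receptor, rose from 1.78 and 3.14 FPKM to 8.41 and 7.44 FPKM (log2 1.68 ± 0.26, adjusted p = 0.00143), beside 7.86 and 9.15 FPKM in uncrushed nerve. The receptor and this ligand thus moved in opposite directions in the same nerves. Il34 rose in Schwann cells as well, from 0.77 and 1.04 FPKM to 8.34 and 4.88 FPKM (log2 2.40 ± 0.30, adjusted p = 0.000515). Of the cytokines best known from the first hours after injury, Il1b and Tnf were low at both times and Il6 was uneven between libraries. Il1b was at 1.78 and 1.79 FPKM and then 0.93 and 1.26 FPKM (adjusted p = 0.287). Tnf at 0 to 0.35 FPKM and Il6 at 0.09 to 5.10 FPKM did not pass the filter on low counts and were not tested.

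Genes of debris handling moved in both directions, beside 11.4% of all tested genes lower and 9.85% higher. Of 32 lysosome genes, 13 were lower and 1, Ctsh, was higher (median -0.27), with 6, 8, 10 and 11 lower in the leave-one-out counts. Lipa, the acid lipase that frees cholesterol from its esters, fell from 66.8 and 68.9 FPKM to 31.4 and 36.0 FPKM (log2 -1.01 ± 0.10, adjusted p = 6.89e-05) and was at 8.72 and 9.87 FPKM in uncrushed nerve. Ctsb, the cysteine protease cathepsin B, fell from 861 and 845 FPKM to 605 and 546 FPKM (log2 -0.58 ± 0.08, adjusted p = 0.00104). Of 24 genes for phagocytosis and lipid handling in macrophages, 7 were lower and 4 higher, with leave-one-out counts of 5, 5, 6 and 6 lower and 3, 3, 3 and 4 higher. The scavenger receptors Msr1 and Stab1 fell by 1.15 and 0.93, and Lgals3, the lectin galectin-3 of phagocytes, by 0.80.

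The higher members of the same list included Apoe and Apoc1. Apoe, the apolipoprotein that carries cholesterol between cells, was at 647 and 690 FPKM at day 3, 855 and 851 FPKM at day 5 and 1601 and 1523 FPKM at day 7, against 210 and 226 FPKM in uncrushed nerve. It was higher at each step (adjusted p = 0.0250 from day 3 to day 5 and 0.000343 from day 5 to day 7), and the change from day 3 to day 7 was 1.22 ± 0.08 (adjusted p = 8.7e-06). Apoc1, a smaller apolipoprotein, went from 22.9 and 20.01 FPKM to 75.9 and 75.1 FPKM (log2 1.84 ± 0.25, adjusted p = 0.000566). The other 2 that rose were Pltp, the phospholipid transfer protein, and Gas6, a bridge to phagocytic receptors (0.91 and 0.32). Gas6 did not pass without either day 3 library or day 7 replicate 1 (adjusted p of 0.0633 to 0.279). Abca1, the cholesterol exporter, was at 96.2 and 106 FPKM at day 3 and at 107 and 114 FPKM at day 7 and did not pass (log2 0.13 ± 0.11, adjusted p = 0.432), while both times were above uncrushed nerve at 7.19 and 6.84 FPKM. Of 14 iron and heme genes, 4 were lower and 1 higher, where 11.4% and 9.85% of all tested genes were. Hmox1, the enzyme that opens heme, fell from 17.0 and 16.8 FPKM to 8.36 and 8.57 FPKM (log2 -1.0 ± 0.16), and Tfrc, the transferrin receptor, from 14.3 and 14.4 FPKM to 6.28 and 5.79 FPKM (log2 -1.25 ± 0.10). Cp, the ferroxidase ceruloplasmin, rose from 60.7 and 67.6 FPKM to 108 and 96.9 FPKM (log2 0.68 ± 0.11, adjusted p = 0.00157) and fell in Schwann cells (-0.67 ± 0.10, adjusted p = 0.00145), and this difference passed its own test (1.36 ± 0.15, adjusted p = 0.000228).

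Interferon-stimulated genes rose more often than they fell, beside 9.85% of all tested genes higher and 11.4% lower. Of 24 tested, 13 were higher and 2, Gbp2 and Ifi47, were lower, with a median of 0.54. The leave-one-out counts of higher genes were 7, 6, 8 and 10, and those of lower genes 1, 1, 2 and 1. Ifi47 did not pass in any of these 4 fits (adjusted p of 0.057 to 0.0965) or in the fit on all 16 libraries (0.305). Mx2, a dynamin-like antiviral GTPase, was at 6.88 and 7.57 FPKM at day 3, 10.2 and 14.9 FPKM at day 5 and 40.5 and 37.1 FPKM at day 7, with 10.4 and 6.78 FPKM in uncrushed nerve. The day 7 libraries stood apart from all others, with a difference of 2.45 ± 0.19 (adjusted p = 1.81e-05). Mx1 of the same family went from 3.42 and 4.57 FPKM to 27.8 and 19.2 FPKM (log2 2.57 ± 0.34, adjusted p = 0.000554). Both rose in Schwann cells too, Mx2 from 4.98 and 4.38 FPKM to 19.6 and 22.9 FPKM (log2 2.09 ± 0.18) and Mx1 from 0.09 and 0.15 FPKM to 1.39 and 1.76 FPKM (log2 3.41 ± 0.47). Against uncrushed nerve, 9 members were higher and 2 lower at day 3 (median 0.42), and 19 were higher and none lower at day 7 (median 1.37).

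Irf7, the interferon regulatory factor of the amplification loop, was at 3.45 and 3.01 FPKM and then 8.94 and 6.24 FPKM (log2 1.23 ± 0.27, adjusted p = 0.00961, but 0.0869 without day 3 replicate 2 and 0.0827 without day 7 replicate 1). Gbp2, a guanylate-binding protein induced by interferon gamma, went the other way, from 108 and 124 FPKM to 69.6 and 65.3 FPKM (log2 -0.78 ± 0.09, adjusted p = 0.000249), and fell alike in Schwann cells (-0.84 ± 0.13).

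The interferon-stimulated response element core (GAAA, any 2 bases, GAAA), searched on both strands, was found in 11 of the 18 interferon-list promoters on hand (61.1%) against 3.77% of all promoters. Irf7, which rose, and Gbp2, which fell, both carry it, and their promoters are printed for that reason, with the element in capitals (here on the opposite strand, where it starts and ends in TTTC). Irf7 covers chr1:205800004-205800273 on the minus strand and Gbp2 chr2:234005477-234005746 on the plus strand in GRCr8.
Irf7: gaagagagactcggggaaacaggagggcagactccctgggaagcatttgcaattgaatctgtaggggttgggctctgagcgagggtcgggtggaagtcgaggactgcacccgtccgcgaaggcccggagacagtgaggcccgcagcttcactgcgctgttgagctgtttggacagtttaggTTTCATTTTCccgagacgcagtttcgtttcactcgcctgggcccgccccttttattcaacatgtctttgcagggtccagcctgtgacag
Gbp2: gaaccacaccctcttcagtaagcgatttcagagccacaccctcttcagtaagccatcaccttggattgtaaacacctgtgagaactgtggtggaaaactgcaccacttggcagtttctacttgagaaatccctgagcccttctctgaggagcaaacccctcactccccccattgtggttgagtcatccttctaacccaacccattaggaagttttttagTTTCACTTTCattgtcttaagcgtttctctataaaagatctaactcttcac

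Antigen presentation genes rose in part. Of 14 genes of MHC class II presentation, 5 were higher (RT1-Bb, RT1-Db1, RT1-Da, Cd74 and RT1-Ba, at 0.79 to 1.44) and 1, the lysosomal thiol reductase gene Ifi30, was lower. Cd74, the invariant chain that guides class II molecules, was at 174 and 170 FPKM at day 3 and at 331 and 329 FPKM at day 7 (log2 0.96 ± 0.10, adjusted p = 9.11e-05), against 51.8 and 57.8 FPKM in uncrushed nerve and 1.37 to 5.67 FPKM in the Schwann cell libraries of both days. RT1-Bb, a class II beta chain, went from 5.17 and 4.08 FPKM to 12.4 and 12.7 FPKM (log2 1.44 ± 0.19, adjusted p = 0.000562). These genes rose in the libraries in which 17 macrophage markers fell. Of 25 complement genes, 5 were higher (Clu, Serping1, C1s, C6 and C7) and 4 lower (C3ar1, C5ar1 and C1qb among them), where 9.85% and 11.4% of all tested genes were, with leave-one-out counts of 2, 1, 2 and 5 higher and 4 lower in each. The fit on all 16 libraries left 2 higher and 1 lower, and C7, Clu, Serping1, C5ar1 and C1qb did not pass there (adjusted p of 0.0923 to 0.286). C7, a membrane attack component, rose from 132 and 128 FPKM to 228 and 235 FPKM (log2 0.83 ± 0.09). C3ar1, the C3a receptor of myeloid cells, fell from 21.5 and 21.2 FPKM to 9.61 and 9.42 FPKM (log2 -1.14 ± 0.14).

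**Figure D4:**
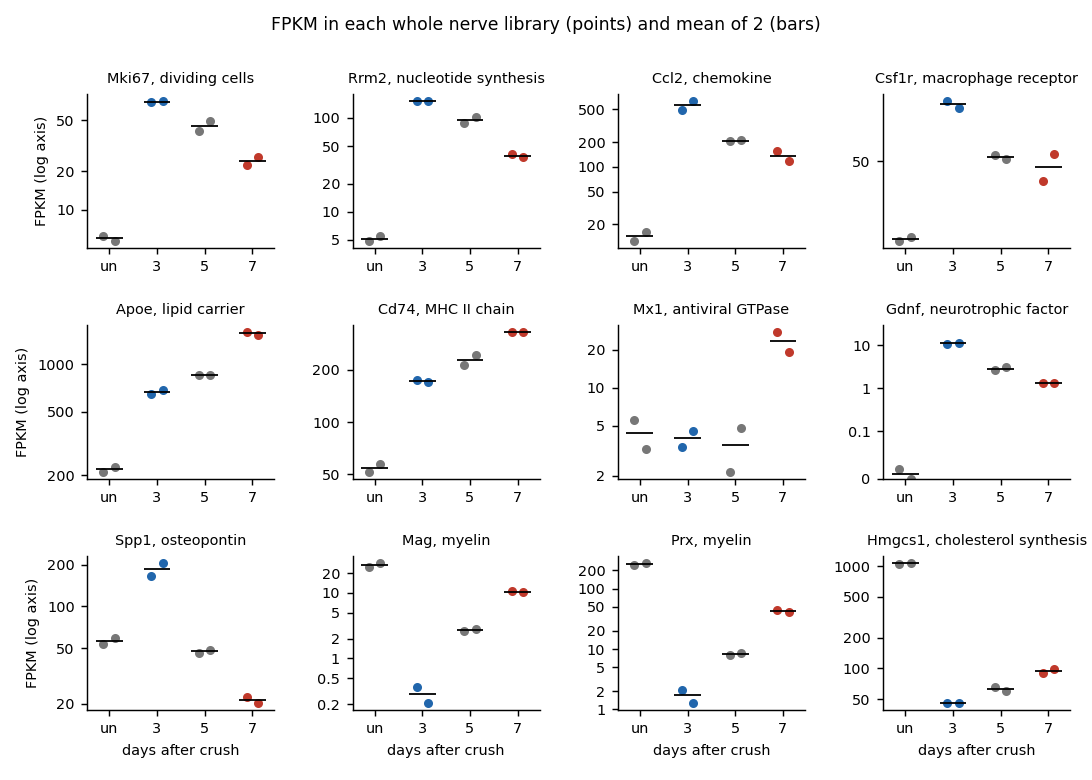
FPKM of 12 genes (y axes, log scale, Gdnf with a linear stretch near 0) in each whole nerve library (points) uncrushed and at days 3, 5 and 7 (x axes), with bars at the mean of 2 libraries, day 3 in blue and day 7 in red. Mki67, Ccl2, Gdnf and Spp1 fall from day 3 to day 7, Apoe and Cd74 climb at each step, Mx1 is high at day 7 alone, and Mag, Prx and Hmgcs1 rise while staying below uncrushed nerve.

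Myelin genes rose from a very low level. Of 20 myelin protein genes, 16 were higher at day 7 and 1 was lower, with a median of 1.74. The lower one was Cntn1, an axonal and glial adhesion protein, at 1.33 and 0.99 FPKM and then 0.44 and 0.42 FPKM (log2 -1.39 ± 0.29, adjusted p = 0.00722, but 0.0706 without day 3 replicate 1). Mag, the adhesion glycoprotein facing the axon, went from 0.37 and 0.21 FPKM to 10.6 and 10.2 FPKM, a log2 change of 5.14 ± 0.21 (adjusted p = 3.77e-07), against 25.0 and 28.8 FPKM in uncrushed nerve. Prx, the periaxin scaffold, was at 2.12 and 1.29 FPKM at day 3, 7.84 and 8.54 FPKM at day 5 and 44.1 and 41.0 FPKM at day 7 (log2 4.65 ± 0.19), against 248 and 267 FPKM in uncrushed nerve. The day 7 libraries of both genes lay above those of day 3 and below those of uncrushed nerve.

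The extent differed between myelin genes. Mbp, the basic protein of the cytoplasmic leaflets, rose by 1.49 ± 0.09, the fatty acid carrier Pmp2 by 1.97 ± 0.09, Pmp22, the tetraspan protein whose duplication causes a human neuropathy, by 2.38 ± 0.15, and Gldn, the gliomedin of node assembly, by 3.10 ± 0.13. At day 7 these remained below uncrushed nerve by 3.38, 3.27, 3.41 and 1.72 on the log2 scale. Over the list, 19 genes were lower than uncrushed at day 3 (median -4.84, with 22.5% of all tested genes lower) and 15 at day 7 (median -2.37, with 15.9%). In Schwann cells 14 of the 20 rose and 1 fell (median 1.32). Mbp rose more in whole nerve than in Schwann cells (difference 0.72, adjusted p = 0.0197). That difference no longer passed without day 3 replicate 2 or day 7 replicate 1 of whole nerve or without replicate 2 of either time in Schwann cells, with adjusted p of up to 0.0924. Of the 12 Schwann lineage markers, 9 were higher and 1, the neurotrophin receptor Ngfr, was lower (-0.99 ± 0.20). The leave-one-out counts of higher markers were 5, 4, 8 and 5. Ngfr was at 473 and 490 FPKM and then 181 and 304 FPKM, and at 12.6 and 13.3 FPKM in uncrushed nerve.

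Of 22 Schwann cell transcription factors, 8 were higher and 1 lower (median -0.04), with leave-one-out counts of 4, 5, 7 and 6 higher and 1, 1, 1 and 3 lower. Pou3f1, the promyelin factor Oct6, was at 2.8 and 2.51 FPKM at day 3, 12.2 and 15.1 FPKM at day 5 and 16.3 and 16.03 FPKM at day 7, against 2.02 and 3.32 FPKM in uncrushed nerve. Its main step lay between days 3 and 5, and day 7 was above uncrushed nerve (log2 2.61 ± 0.20 from day 3, adjusted p = 2.22e-05). Egr2, the master regulator Krox20 of myelination, rose from 4.38 and 6.10 FPKM to 15.7 and 19.6 FPKM (log2 1.76 ± 0.17, adjusted p = 6.89e-05) and was at 36.1 and 41.2 FPKM in uncrushed nerve. The lower one was Runx2, which injured Schwann cells turn on, at 28.0 and 25.6 FPKM and then 11.4 and 13.4 FPKM (log2 -1.12 ± 0.13, adjusted p = 0.000229). Sox2, a factor of immature Schwann cells, was at 13.3 and 16.04 FPKM and then 9.58 and 14.4 FPKM, with overlap (adjusted p = 0.333). Jun, the central factor of the repair state, was at 49.0 and 52.0 FPKM and then 35.1 and 45.4 FPKM (log2 -0.33 ± 0.11, adjusted p = 0.0667, and 0.0112 without day 7 replicate 2).

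Lipid synthesis rose in part, beside 9.85% of all tested genes higher and 11.4% lower. Of 24 cholesterol synthesis genes, 10 were higher and 1, the sterol carrier gene Stard4, was lower (median 0.37), with leave-one-out counts of 8, 5, 8 and 7 higher and 1, 1, 2 and 1 lower. Hmgcs1, the synthase that starts the pathway, went from 46.3 and 46.2 FPKM to 91.2 and 98.2 FPKM (log2 1.03 ± 0.08, adjusted p = 2.86e-05). It was far below uncrushed nerve, where it stood at 1057 and 1078 FPKM. All 24 genes were lower than in uncrushed nerve at day 3 (median -3.00) and at day 7 (median -2.72). Sqle, the squalene epoxidase, was at 15.0 and 18.4 FPKM and then 11.1 and 13.7 FPKM (log2 -0.43 ± 0.16, adjusted p = 0.0909). Of 26 fatty acid and myelin lipid genes, 10 were higher and 4 lower, with leave-one-out counts of 6, 4, 7 and 4 higher and 0, 2, 1 and 4 lower. Fa2h, which hydroxylates the fatty acids of myelin galactolipids, rose from 2.02 and 1.97 FPKM to 11.9 and 15.3 FPKM (log2 2.77 ± 0.19), Gal3st1, the sulfatide synthase, by 2.18 ± 0.31, and Ugt8, which makes galactosylceramide, by 0.86 ± 0.09.

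Repair genes of the injured Schwann cell fell more often than they rose, beside 11.4% of all tested genes lower and 9.85% higher. Of 28 tested, 14 were lower and 3 higher, with a median of -0.77, with leave-one-out counts of 11, 7, 9 and 11 lower and 1, 1, 2 and 2 higher. The list includes genes that the study itself picked out, and its counts are not independent evidence of a direction. Not all of its genes are raised by injury here, as 18 were higher and 8, Sparcl1 among them, lower than uncrushed nerve at day 3, and their summed FPKM was 1924 and 2031 in uncrushed nerve against 1359 and 1387 at day 3. Gdnf, the glial neurotrophic factor, was at 10.8 and 11.2 FPKM at day 3, 2.60 and 3.10 FPKM at day 5 and 1.33 and 1.34 FPKM at day 7, and at 0.02 and 0 FPKM in uncrushed nerve. Its steepest step lay before day 5, and the whole fall was 3.03 ± 0.17 on the log2 scale (adjusted p = 3.93e-06). In Schwann cells Gdnf went from 65.2 and 78.2 FPKM to 23.4 and 30.3 FPKM (log2 -1.52 ± 0.22), a smaller fall by its own test (-1.49 ± 0.30, adjusted p = 0.00954). Btc, the ErbB ligand betacellulin, was at 23.1 and 24.6 FPKM and then 10.7 and 12.3 FPKM (log2 -1.06 ± 0.23, adjusted p = 0.00975, but 0.0696 without day 3 replicate 2 and 0.0676 without day 7 replicate 1).

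Bdnf moved against Gdnf. This brain-derived neurotrophic factor was at 0.41 and 0.39 FPKM at day 3 and at 1.66 and 1.16 FPKM at day 7, and at 0 in uncrushed nerve (log2 1.84 ± 0.41 from day 3, adjusted p = 0.0119). Its level was low and the call was lost without day 3 replicate 1 (adjusted p = 0.0693), day 3 replicate 2 (0.0897) or day 7 replicate 1 (0.0831). In Schwann cells it went from 0.70 and 0.85 FPKM to 1.63 and 3.02 FPKM (log2 1.41, adjusted p = 0.0185). Sparcl1, a matricellular protein of blood vessels and glia, rose from 32.7 and 30.2 FPKM to 65.5 and 64.8 FPKM (log2 1.05 ± 0.11), and Gfra1, the receptor for Gdnf, by 0.45 ± 0.11 (adjusted p = 0.0142, but 0.0743 to 0.107 without day 3 replicate 1, day 3 replicate 2 or day 7 replicate 2). Shh, a morphogen of repair cells, was at 2.05 and 1.71 FPKM and then 1.03 and 0.78 FPKM (log2 -1.05 ± 0.40, adjusted p = 0.0919) and at 0 in uncrushed nerve.

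Of 20 immediate-early genes, 4 were lower and 2 higher, where 11.4% and 9.85% of all tested genes were, so only the higher count was near its share. Both counts changed when 1 library was left out. Fosl1, an AP-1 transcription factor, fell from 10.4 and 9.09 FPKM to 1.22 and 1.27 FPKM (log2 -2.97 ± 0.27, adjusted p = 5.01e-05), and Atf3, a stress factor of injured nerve, from 79.7 and 73.4 FPKM to 26.1 and 34.3 FPKM (log2 -1.34 ± 0.17). The fall of Fosl1 was larger than in Schwann cells, where it was -0.83 ± 0.13 (difference -2.13 ± 0.28, adjusted p = 0.000751). Egr3, a relative of Egr2, rose from 2.32 and 3.33 FPKM to 8.04 and 10.8 FPKM (log2 1.73 ± 0.20, adjusted p = 0.000249). Of 22 unfolded protein and stress genes, 9 were lower and none higher (median -0.34), with leave-one-out counts of 6, 4, 7 and 3. Of 26 glycolysis and hypoxia genes, 11 were lower and 1, the mitophagy receptor gene Bnip3, was higher (median -0.31), with 8 lower in each leave-one-out fit, and Bnip3 did not pass without day 3 replicate 2 (adjusted p = 0.0516). Pkm, the pyruvate kinase, fell from 62.4 and 61.7 FPKM to 33.9 and 32.1 FPKM (log2 -0.93 ± 0.11), and Ldha, the lactate dehydrogenase, from 1018 and 1089 FPKM to 654 and 603 FPKM (log2 -0.75 ± 0.09). Both had returned near uncrushed nerve, where Ldha was at 485 and 512 FPKM. Of 32 nuclear oxidative phosphorylation genes, 10 were lower and none higher (median -0.23), led by Cox5b (-0.79 ± 0.09) and Cox5a (-0.53 ± 0.08), 2 subunits of cytochrome oxidase, with leave-one-out counts of 3, 4, 9 and 6 and 6 in the fit on all 16 libraries.

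Of 35 fibrillar collagen and interstitial matrix genes, 6 were higher and 4 lower (median 0.02), where 9.85% and 11.4% of all tested genes were, with leave-one-out counts of 4, 3, 5 and 5 higher and 4, 2, 2 and 5 lower. Col3a1, the main collagen of reticular fibres, was at 1857 and 1904 FPKM and then 2213 and 2169 FPKM (log2 0.22 ± 0.08, adjusted p = 0.0732). Col1a2, a chain of type I collagen, was listed at 21.6 and 0 FPKM and then 47.9 and 293 FPKM while its partner Col1a1 was at 1342 and 1340.1 FPKM and then 1234 and 1731 FPKM, so its values are not read further. Of 21 basement membrane, laminin and integrin genes, 7 were higher and 2 lower (median 0.27), with leave-one-out counts of 4, 5, 8 and 5 higher and 0, 1, 0 and 1 lower. Lama2, the laminin chain of the Schwann cell basal lamina, rose from 34.1 and 38.1 FPKM to 62.7 and 68.5 FPKM (log2 0.86 ± 0.12, adjusted p = 0.000796), and Itgb4, an integrin of mature Schwann and perineurial cells, from 15.0 and 19.0 FPKM to 41.8 in both libraries (log2 1.3 ± 0.15). Itgb4 did not pass in Schwann cells (0.14 ± 0.09, adjusted p = 0.313), and the preparations differed (1.18 ± 0.18, adjusted p = 0.0017). Of 26 matrix proteases and inhibitors, 10 were lower and 2 higher, with leave-one-out counts of 6, 7, 6 and 10 lower and 1, 1, 1 and 3 higher. Adam17, the sheddase that cuts neuregulin, rose from 31.2 and 35.3 FPKM to 79.0 and 79.8 FPKM (log2 1.26 ± 0.08, adjusted p = 8.02e-06) and by 1.31 ± 0.10 in Schwann cells. Timp1, an inhibitor of metalloproteinases, fell by 0.51 ± 0.09.

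Ion channel genes rose more often than they fell, with 10 higher and 2 lower of 30 (median 0.38), and the leave-one-out counts were 7, 8, 8 and 8 higher and 0, 1, 0 and 0 lower. Beside Kcnj10, Kcna2, a juxtaparanodal potassium channel subunit, rose from 2.19 and 1.55 FPKM to 13.1 and 16.1 FPKM (log2 2.97 ± 0.18), and more so in Schwann cells, from 1.15 and 1.05 FPKM to 20.5 and 16.3 FPKM (log2 4.20 ± 0.18, difference -1.22 ± 0.27, adjusted p = 0.0144). The difference of Kcna2 no longer passed without whole nerve day 3 replicate 1, whole nerve day 7 replicate 1 or Schwann cell day 7 replicate 1, with adjusted p of up to 0.0757. Scn7a, the atypical sodium channel of non-myelinating glia, rose from 11.2 and 16.4 FPKM to 66.7 and 52.2 FPKM in whole nerve (log2 2.12 ± 0.20, adjusted p = 6.89e-05) but was high at both times in Schwann cells (154 and 101.9 FPKM, then 178 and 149 FPKM, log2 0.27 ± 0.18). This difference passed (1.87 ± 0.30, adjusted p = 0.00243). Of 9 axonal and neuronal genes, Nefm and Stmn2 were higher (leave-one-out counts 1, 3, 2 and 2) and Uchl1 was lower (1 in each). For both lists, 9.85% of all tested genes were higher and 11.4% lower for comparison. Nefm, the medium neurofilament chain, was at 8.68 and 21.5 FPKM and then 78.0 and 46.5 FPKM (log2 2.05 ± 0.35, adjusted p = 0.00254). It was also at 116 and 106 FPKM in day 7 Schwann cells, and axons and Schwann cells cannot be told apart as its source in whole nerve.

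Of 12 endothelial markers, 4 were lower (Plvap, Esam, Tie1 and Pecam1, from -0.77 to -0.39), with leave-one-out counts of 0, 0, 1 and 1 and 1 lower with DESeq2, and 1 marker was called higher without day 7 replicate 1. Of 10 pericyte and smooth muscle markers, 1, Pdgfrb, was higher (0.41 ± 0.12), with leave-one-out counts of 0, 0, 1 and 0 higher. Of 13 fibroblast markers, 3 were higher and 2 lower, with leave-one-out counts of 1, 1, 0 and 2 higher and 1, 1, 2 and 2 lower. Their most abundant member Dcn, the proteoglycan decorin, was at 2486 and 2419 FPKM and then 3064 and 3057 FPKM (log2 0.32 ± 0.08, adjusted p = 0.0225, and 0.0563 to 0.161 in the leave-one-out fits). Of 6 perineurial markers, Cldn1, Itgb4 and Krt19 were higher (leave-one-out counts of 2, 2, 2 and 3). Cldn1 did not pass with DESeq2 (adjusted p = 0.0937) or without either day 3 library or day 7 replicate 1 (0.145 to 0.198). Krt19, a simple keratin, went from 2.00 and 2.77 FPKM to 6.4 and 6.45 FPKM (log2 1.42 ± 0.23, adjusted p = 0.00191). Of 16 muscle, fat and blood markers, the fat genes Lep and Cidec were higher and none was lower, with leave-one-out counts of 2, 0, 0 and 0. Among all tested genes, 9.85% were higher and 11.4% lower. In the fit on all 16 libraries, no endothelial marker was lower, and 1 fibroblast marker was higher and none lower.

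**Figure D5:**
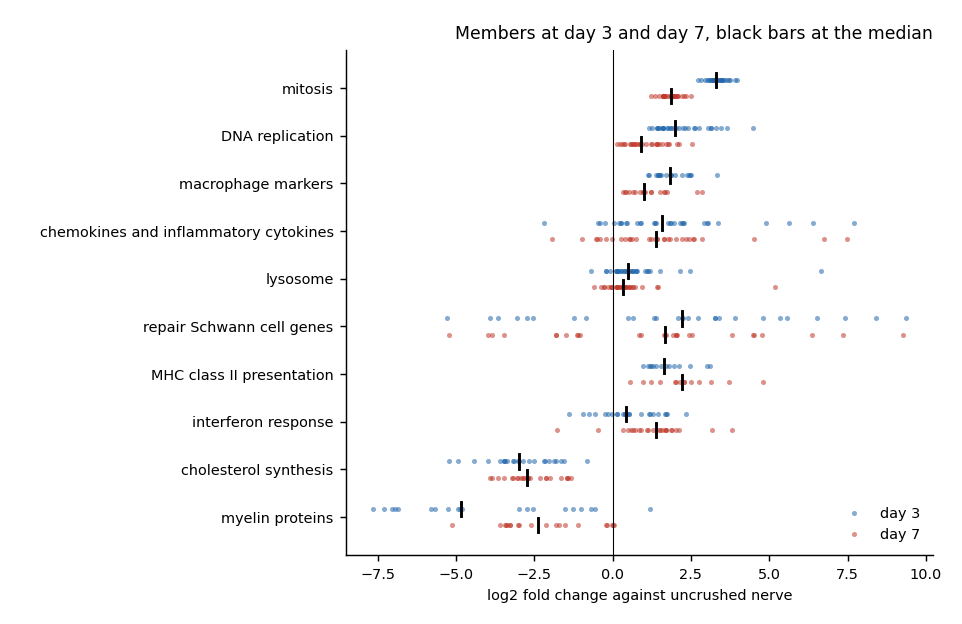
Log2 fold change against uncrushed whole nerve (x axis) of the tested members of 10 lists (y axis) at day 3 (blue) and day 7 (red), with black bars at the median; both times use the same uncrushed libraries. Mitosis medians stand at 3.31 and 1.87, macrophage markers at 1.83 and 1.01, interferon genes at 0.42 and 1.37, cholesterol synthesis at -3.00 and -2.72 and myelin proteins at -4.84 and -2.37.

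The lists differed in how far day 7 lay from uncrushed nerve. Division, macrophage and myelin genes stood closer to uncrushed nerve at day 7 than at day 3, and interferon and MHC class II genes stood farther from it (medians of 1.63 and 2.23 for class II). Among all 1560 higher genes the median difference from uncrushed nerve was -0.85 at day 3 and -0.06 at day 7, and among the 1798 lower genes it was 0.84 and 0.19. The libraries are shared, so these are values side by side and not a test. The crushed animals were also older at collection than the labelled age of the uncrushed animals.

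Purified Schwann cells offer libraries that are not shared. There, 3139 of 14961 genes (21.0%) differed between day 7 and day 3. Of the 1473 genes higher in whole nerve that were tested there, 687 were higher, 60 lower and 726 not called, and of 1670 lower genes, 636 were lower, 15 higher and 1019 not called. Over 14030 genes the 2 sets of log2 fold changes correlated with r = 0.437 and rho = 0.434, a description over genes, which are not independent and which share base composition and length. The change differed between the preparations for 1034 of 16829 genes (6.14%), 625 more positive (3.71%) and 409 more negative (2.43%) in whole nerve.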

How the data were processed

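Whole nerve and immunopanned Schwann cell RNA was amplified and sequenced by the authors, who aligned reads to Rnor_6.0 with STAR and quantified genes with RSEM. The deposited files give, for 31038 genes per library, expected counts, which are estimated and need not be whole, and FPKM values, normalised by the authors for length and depth. The library kit is not stated to mark strand, so overlapping genes cannot be told apart.

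Expected counts were rounded and tested in edgeR 4.0.16 (R 4.3.3) with filterByExpr, TMM scaling and the quasi-likelihood test on the 8 whole nerve libraries. P-values were adjusted by Benjamini-Hochberg over all genes tested, with a threshold of 0.05. Schwann cells were fitted alike, and the difference between the preparations in one model of all 16 libraries. In these tests ± is the standard error. FPKM was used for levels only. What separates the 2 samples of a group is not stated, so p-values measure the spread between samples. Alternatives were DESeq2 1.42.0, other scalings, filters and sample sets, a replicate block and omission of each library. On simulated data with 200 changed genes, the edgeR test of whole nerve made 134 calls, of which 124 were changed genes. There, only the day 7 group was changed and all other genes were level across groups, unlike the data. The simulation therefore does not give the error rate of the real calls.

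Genes were named by rule: the 12 with the lowest adjusted p per direction with an absolute log2 fold change of at least 1, anchor genes, the 2 most extreme members of each list in each direction, and members inside a count of 5 or fewer. Some genes that fall under this rule are not reported here. The comparison, the 32 lists and the tests were chosen with earlier results of these data known. Promoters are RefSeq sequences of build GRCr8, matched by symbol.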

Additional observations from a re-analysis of the deposited data

Results flagged for a closer look

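The change from day 3 to day 7 was compared between whole nerve and purified Schwann cells in one edgeR fit of the 16 libraries. For 37 of the genes named in the text this difference had an adjusted p below 0.05, and these are given here as log2 differences, whole nerve minus Schwann cells. With 2 libraries per group, no group could be searched for a library far from the others. The 2 preparations differ in cell makeup and in handling, and these cannot be told apart.

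Division genes fell further in whole nerve, with differences of -1.40 for Plk1, -1.21 for Nusap1, -1.09 for Top2a, -1.05 for Mastl, -0.94 for Mki67, -0.88 for Anln, -0.85 for Cdk1, -0.83 for Hmmr and -0.83 for Cdc20. Among injury-induced genes the differences were -2.13 for Fosl1, -1.49 for Gdnf, -1.32 for Pcsk1, -1.23 for Spp1 and -0.46 for Timp1. Genes whose rise was larger in whole nerve were Scn7a (1.87), Itgb4 (1.18), Kcnj10 (1.06), Tmprss5 (0.85), Fam212b (0.73) and Mbp (0.72). Genes whose rise was larger in Schwann cells were Kcna2 (-1.22), Pdgfrb (-1.32) and Sparcl1 (-1.06). Col3a1 (-1.60) rose in the Schwann cell libraries by 1.84, from 20.3 and 35.8 FPKM to 125 and 89.3 FPKM, and its change in whole nerve did not pass. Its level in whole nerve was far higher at both times. Col3a1 and Pdgfrb are on the fibroblast and pericyte lists. Which cells in the Schwann cell libraries carried them was not tested. Ctsb fell less in whole nerve (0.49). The remaining positive differences were 2.10 for Serping1 and 1.22 for C1s, both of the complement system, 0.76 for Gas6, a ligand that bridges dying cells to phagocytes, 2.53 for the mast cell protease gene Cpa3, and 1.08, 1.26 and 0.69 for Nr1d2, Rora and Tef of the circadian clock.

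The next 3 genes had changes of opposite sign in the 2 preparations, as had C1s, Serping1, Gas6 and Rora. Cp, the ferroxidase ceruloplasmin, rose by 0.68 in whole nerve and fell by 0.67 in Schwann cells (difference 1.36). Ctsh, the lysosomal protease cathepsin H, rose by 0.53 and fell by 0.40 (difference 0.94). Ifi30, the thiol reductase that prepares antigens in lysosomes, fell by 0.73 in whole nerve and had a log2 change of 0.46 in Schwann cells (difference -1.17). The differences of Cntn1 (-6.83) and Esam (5.76) rest on Schwann cell libraries that held 0 to 0.19 FPKM of Cntn1 and 0 to 0.52 FPKM of Esam, and their size is not read.

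Of the 37 differences, 22 passed without each of the 8 day 3 and day 7 libraries in turn and 15 were lost at least once. Tef was lost under all 8 omissions, Cntn1, Esam, Cdc20, Cpa3, Sparcl1 and Timp1 under 7, Ctsb under 6, Mbp and Gas6 under 4, Cdk1 and Kcna2 under 3, Serping1 and Kcnj10 under 2 and Fam212b without whole nerve day 3 replicate 1. Schwann cell day 3 replicate 2 had the highest leukocyte and endothelial signal of the day 3 and day 7 Schwann libraries (Ptprc 1.29 FPKM, Pecam1 0.67 FPKM). Its omission lost Esam, Cpa3 and Serping1, and also Cdc20, Cdk1, Cntn1, Ctsb, Gas6, Mbp, Sparcl1, Tef and Timp1. Esam, Cpa3 and Serping1 were lost without Schwann cell day 7 replicate 1 as well, so their loss does not single out 1 library.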

How the results depend on the processing

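The number of genes called between day 7 and day 3 in whole nerve was 3358 and lay between 2881 (DESeq2) and 4157 (no filter on low counts) under the other tests, scalings, filters and choices of libraries, apart from the test of at least a 2-fold change, which called 233 genes, 148 higher and 85 lower. Without 1 library at a time, calls ranged from 1634 to 3570, higher genes from 742 to 1636 and lower genes from 892 to 1944. The lowest counts came without a day 3 library, where 1 library stands for the group and is assumed to vary like the others. The 2 omissions of an uncrushed library (3568 and 3570 calls) were chosen after seeing the data, because replicate 2 held muscle transcripts. Genes whose change differed between the preparations numbered 1034 and, without 1 library, 518 to 807, and the Schwann cell count of 3139 became 1533 to 2182. Counts against uncrushed nerve stayed within 1.5 times in all settings tried. Of 133 named genes called, 101 were called without each day 3 and day 7 library in turn. The difference of Mcm7, near 0 and never called, turned from -0.01 to 0.028 with upper quartile scaling, 0.0047 with at least 10 counts in every library, 0.0044 with 4 libraries, 0.0154 with 16 libraries and from -0.094 to 0.076 without 1 library. Without 1 library, Col1a1 ranged from -0.11 to 0.37 and Myh4 from -2.07 to 3.46. The median over all genes lay at 0.038 or less under each scaling.

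With the replicate number as a block, 3634 genes were called, 1680 higher and 1954 lower. Deviations of same-numbered whole nerve libraries from their group means correlated with r of -0.0576 to 0.0838 over 15831 genes, so the numbers were read as names and not as pairs.

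With 2 libraries per group, an exact permutation test of 1 gene cannot go below p = 0.333, so every p here borrows the spread of other genes and groups. How far depth limited the calls of genes with few fragments or changes under 2-fold was not tested.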

Other observations

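Genes of the circadian clock, picked after their values were seen, were not among the lists described above. Of 18 such genes tested, 8 were higher and 2 lower at day 7 than at day 3 in whole nerve, where 9.85% and 11.4% of all tested genes were. Nr1d2, a repressor of the clock loop, was at 6.22 and 6.37 FPKM at day 3, 15.9 and 17.2 FPKM at day 5 and 13.1 and 13.9 FPKM at day 7, against 14.7 and 16.4 FPKM in uncrushed nerve (log2 1.10 ± 0.10, adjusted p = 4.42e-05). In Schwann cells its difference was 0.03 (adjusted p = 0.851), and the preparations differed (adjusted p = 0.000706). Hlf, a transcription factor driven by the clock, rose by 1.45 ± 0.13 and its relative Tef by 0.91 ± 0.13. The period genes Per1, Per2 and Per3 rose by 0.93, 0.61 and 0.92, and Nr1d1 and Rora by 0.52 and 0.44. Nfil3 fell by 0.71 and Bhlhe41 by 0.49. Of the 8 clock genes higher in whole nerve, Nr1d1 (0.81, adjusted p = 0.00133) and Per3 (0.51, adjusted p = 0.044) rose in Schwann cells too. Rora fell there (-0.80, adjusted p = 0.00181), and the others were not called. In whole nerve, Nr1d1 was highest at day 5, at 16.8 and 18.15 FPKM against 6.48 and 8.22 FPKM at day 7. The calls of Per1 and Per2 were lost without day 3 replicate 1 (adjusted p = 0.0604 and 0.0648), and that of Per2 also without day 3 replicate 2 (0.0621). Nr1d1 was lost without either day 3 library or day 7 replicate 2 (adjusted p of up to 0.285) and with DESeq2, DESeq2 size factors in edgeR or 4 libraries (0.051 to 0.0693), Nfil3 without day 3 replicate 2 or either day 7 library (up to 0.167) and Bhlhe41 without either day 3 library or day 7 replicate 1 (up to 0.0902) or with all 16 libraries (0.284). Clock itself had a difference of -0.13 (adjusted p = 0.348) and Arntl, its partner, one of 0.29 (adjusted p = 0.218). The hour at which nerves were taken is not given in the sources used here, and its part in these values was not tested.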
